A study of Mus musculus with 3 samples.

Results

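The T cell receptor beta locus of the mouse was examined through its variable (Trbv), diversity (Trbd) and joining (Trbj) segments, taken as every gene of the GENCODE M21 annotation whose symbol starts with one of those prefixes. There were 51 such genes among 55536, namely 35 Trbv, 2 Trbd and 14 Trbj. By their annotated class, 22 Trbv and 13 Trbj genes are functional, and 13 Trbv genes and Trbj2-6 are pseudogenes. Polyadenylated RNA was sequenced from CD4-positive T cells labelled as effector memory cells with an alpha-beta receptor, isolated from 1 male C57BL/6J mouse aged 7 months, with no treatment in the labels. The 3 libraries are technical replicates 1, 2 and 3 of that animal and form 1 group, called libraries 1, 2 and 3 here. No condition is therefore compared, and every SD and p-value measures only the spread between libraries of the same mouse.

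A T cell makes its receptor beta chain by cutting and joining the germline locus so that 1 variable, 1 diversity and 1 joining segment lie next to each other upstream of a constant gene. The transcript reads through the joined segments and is spliced to Trbc1 or Trbc2. Each Trbv level thus reflects, at least in part, how many cells carry that segment and how much receptor RNA each makes. In bulk RNA, fewer cells with a segment and less RNA per cell cannot be told apart. The variable segment encodes most of the antigen-binding domain, and the joint with the diversity and joining segments forms the third complementarity-determining region, the part that contacts peptide.

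Libraries 1, 2 and 3 held 16251564, 14878641 and 14152590 expected counts on genes. These are estimated counts in which reads that fit several genes are shared among them, and TPM values, which add up to the same total in each library, correct them for the length a read can start in. A second deposited table, made from a separate alignment with GENCODE M4 genes, held 5110680, 4812984 and 4579836 whole-number counts. Cd4 reached 479, 470 and 477 TPM and Trac, the alpha constant gene, 3136, 3659 and 3017 TPM in libraries 1, 2 and 3. Cd8a had 1 count in each library, while Cd8b1 had 47.2, 52.1 and 64.1. The gamma-delta T cell list (Trdc, Tcrg-C1, Tcrg-C2, Tcrg-C4, Trdv4 and Sox13) had no gene with 30 counts, with Trdc and Trdv4 at 0 and a summed level of 0.38 to 1.10 TPM.

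Trbv13-3, the segment with the highest level, and Trbv13-2, the third highest after Trbv31, belong to the Trbv13 subfamily, formerly Tcrb-V8, whose 3 copies alternate with the Trbv12 copies along chromosome 6. Their sequences are shown so that the differences by which reads of the copies were separated can be seen. The last 120 bases of each annotated transcript are given 5′ to 3′ from the GENCODE M21 transcripts on GRCm38/mm10, and capitals mark bases that differ from Trbv13-3. The stretches lie at chr6:41130466-41130585 for Trbv13-3, chr6:41121713-41121832 for Trbv13-2 and chr6:41116349-41116468 for Trbv13-1, all on the plus strand and in the variable exon.
Trbv13-3: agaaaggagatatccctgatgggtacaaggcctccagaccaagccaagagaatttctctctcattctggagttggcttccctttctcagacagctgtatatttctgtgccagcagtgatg
Trbv13-2: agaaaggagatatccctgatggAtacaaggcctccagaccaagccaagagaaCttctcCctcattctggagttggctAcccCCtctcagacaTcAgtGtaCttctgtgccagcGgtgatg
Trbv13-1: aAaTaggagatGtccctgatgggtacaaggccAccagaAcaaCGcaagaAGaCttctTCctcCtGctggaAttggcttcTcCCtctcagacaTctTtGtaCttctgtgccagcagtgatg
Trbv13-2 differed from Trbv13-3 at 11 of these 120 bases and Trbv13-1 at 22. Over whole aligned transcripts Trbv13-3 was 90.6% identical to Trbv13-2 and 85.3% to Trbv13-1, while the median over the 190 pairs of variable segments with 30 or more counts was 60.6%. Of the 291 windows of 50 bases in Trbv13-3, the read length implied by the deposited lengths, 1 also occurred in Trbv13-2, and none of those in Trbv13-1 occurred in another gene. The deposited posterior SD of the count, which measures how surely reads were assigned, was at most 0.120% of the count for Trbv13-3, 0.192% for Trbv13-2 and 0.337% for Trbv13-1.

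Trbv13-3 stood at 508, 512 and 478 TPM in libraries 1, 2 and 3. Trbv31, the segment that lies beyond Trbc2 in inverted orientation and joins by inversion, stood at 397, 353 and 360 TPM. Trbv13-2 stood at 314, 325 and 326 TPM. In TPM, all 3 values of each of these segments lay below all 3 of the segment named before it, so the libraries gave the same order. Counts of the second table kept this order within each library, but neighbouring ranges overlapped there. Trbv13-3 ran from 474 to 516, Trbv31 from 451 to 479 and Trbv13-2 from 426 to 473. On the TPM scale Trbv13-3 was 1.55 ± 0.080 times Trbv13-2 (SD, n = 3) and 1.35 ± 0.0874 times Trbv31.

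Trbv12-2 followed at 98.1, 87.5 and 98.8 TPM. Trbv17 had 57.8, 69.6 and 60.2 TPM, and Trbv13-1 had 40.01, 52.5 and 57.3 TPM. The gap between Trbv13-2 and Trbv12-2 was the widest between neighbours among the highest 10 segments, and no value of Trbv12-2 reached that of Trbv13-2. Trbv29 had 46.6, 43.5 and 43.4 TPM. Trbv14 had 45.4, 41.8 and 42.8 TPM, and Trbv20 had 43.2, 37.5 and 41.4 TPM. Trbv13-1, Trbv29, Trbv14 and Trbv20 overlapped from one to the next, so their order was not settled by these libraries. Trbv4 closed the highest 10 at 25.7, 26.9 and 29.3 TPM, below every value of Trbv20.

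Closely related copies differed widely in level. Trbv13-3 was 10.3 ± 2.23 times Trbv13-1 (SD, n = 3), with ratios of 12.7, 9.75 and 8.34 in libraries 1, 2 and 3. In the second table, where Trbv13-1 had 111, 133 and 130 counts, the ratio of counts was only 3.96 ± 0.597 (SD, n = 3). The copies Trbv12-2 and Trbv12-1 are 88.3% identical, yet Trbv12-2 was 21.3 ± 0.605 times Trbv12-1, which had 4.73, 3.99 and 4.68 TPM. The second-table ratio of these copies was 17.1 ± 1.505 (SD, n = 3). Their pseudogene neighbour Trbv12-3 had 1, 2 and 1.01 expected counts. The block from Trbv12-1 to Trbv13-3, chr6:41113550-41130585, took 56.3%, 58.2% and 57.7% of all Trbv counts. Its 3 Trbv13 members alone took 49.4%, 52.0% and 50.7%, with exact (Clopper-Pearson) 95% intervals of 48.0 to 50.8%, 50.5 to 53.5% and 49.2 to 52.2%. These intervals treat rounded expected counts as independent reads and cover no other source of error. Reads without molecular identifiers are not independent molecules, so the intervals can be too narrow.

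**Figure D1:**
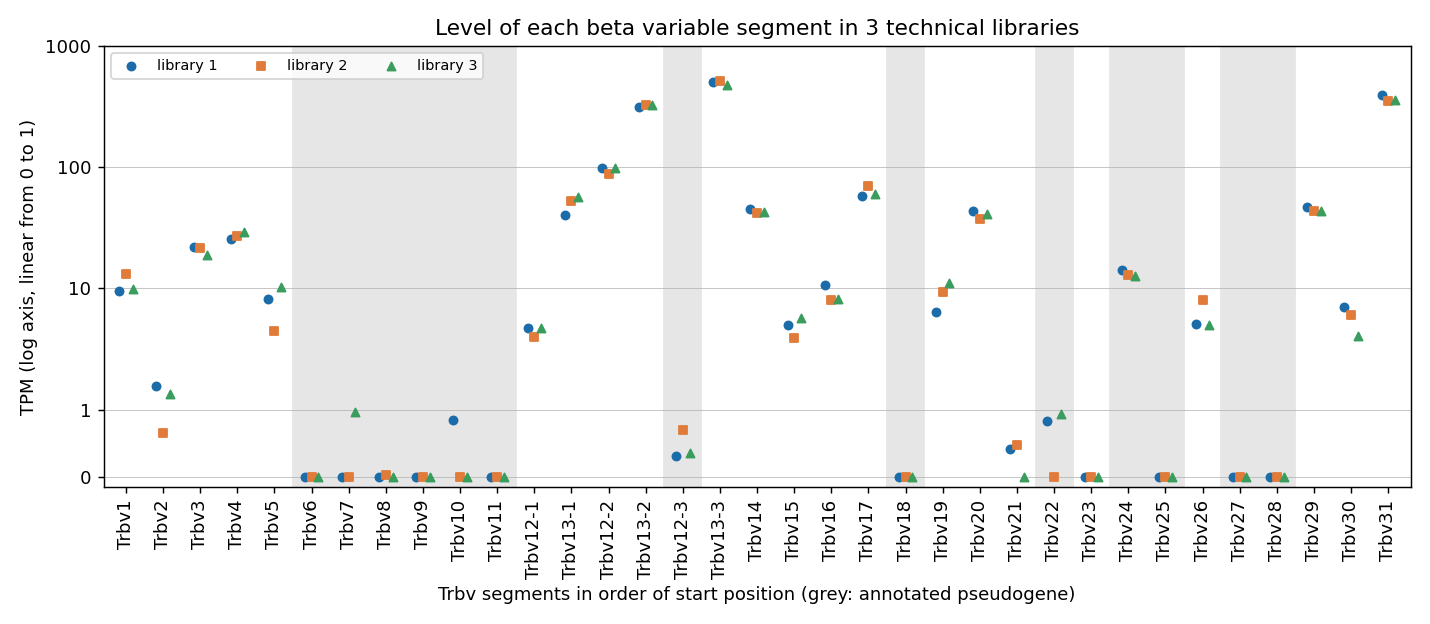
TPM of the 35 Trbv segments (vertical, log axis that is linear from 0 to 1) in order of start position, with 1 point per library and grey bands for annotated pseudogenes. The highest points belong to Trbv13-3, Trbv31 and Trbv13-2, and all pseudogenes except Trbv24 stay below 1 TPM.

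Below the highest 10 segments lay 10 others with at least 30 counts over the 3 libraries. Trbv3 had a mean of 20.8 TPM, below all values of Trbv4, and Trbv24 had 13.2. Trbv1 (10.9 TPM), Trbv16 (8.97), Trbv19 (8.94), Trbv5 (7.65), Trbv26 (6.06), Trbv30 (5.68), Trbv15 (4.85) and Trbv12-1 (4.47) formed a chain in which each overlapped the next. Of the 19 neighbouring pairs among the 20 segments, 8 did not overlap and 11 did. The highest 10 segments together took 93.2 ± 0.0755% of Trbv counts (SD, n = 3), which left 6.84% for the other 25.

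High and low segments lay side by side along the locus. From Trbv1 to Trbv31 the locus spans chr6:40891229-41558452, or 667224 bases on GRCm38/mm10. Trbv1, the farthest upstream and separated from Trbv2 by 155454 bases, had 9.55, 13.2 and 9.89 TPM. Trbv30, next to the 251210 bases that separate the upstream group from Trbd1, had 7.03, 5.99 and 4.02 TPM. Trbv29, the segment just before Trbv30, had a mean of 44.5 TPM, and Trbv2, just after the first gap, had 1.19. Between the outermost segments lie 28 other genes, 14 of them protein coding, and 21 had 0 counts. Only Prss2, a trypsinogen gene, reached 30 counts, with 14.0, 15.9 and 14.7 TPM, and the next, the long non-coding RNA 5830405F06Rik, had 0, 8.37 and 4.48 expected counts.

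Of the 22 functional variable segments, 19 reached 30 counts. Trbv2 had 17 counts and Trbv21 had 2 in all. Trbv23 had 0 counts in every library, in the second table too, and 0 counts allows up to 0.185, 0.202 and 0.212 CPM (counts scaled to the library's gene counts) in libraries 1, 2 and 3. Stop codons were searched only in a stretch near each transcript's end. There, every functional segment, Trbv21 and Trbv23 included, has at least 1 reading frame without one.

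Among the 13 variable pseudogenes, Trbv24 alone reached 30 counts, and 7 had 0. Trbv24 had 42, 34 and 33 expected counts, or 14.2, 12.9 and 12.6 TPM, and RefSeq classes the same gene as a variable segment rather than a pseudogene. The last 60 bases of Trbv24 (chr6:41218498-41218557, plus strand), Trbv31 (chr6:41557693-41557752, minus strand) and Trbv12-2 (chr6:41119305-41119364, plus strand) are shown from the same transcripts, because they hold the conserved cysteine codon that opens the third complementarity-determining region. Capitals mark that codon and any stop codon in its frame.
Trbv24: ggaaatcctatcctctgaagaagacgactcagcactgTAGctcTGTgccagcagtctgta
Trbv31: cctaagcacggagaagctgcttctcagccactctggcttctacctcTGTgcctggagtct
Trbv12-2: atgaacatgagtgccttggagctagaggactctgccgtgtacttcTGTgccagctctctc
Trbv24 carries 1 in-frame stop, 2 codons before the cysteine, and the other segments shown carry none in this stretch. In the longer stretch searched for stops near the transcript's end, Trbv10 alone of the 13 pseudogenes has a frame without one. It had 2, 0 and 0 counts. The other pseudogenes with reads were Trbv22 (4 counts in all), Trbv12-3 (4.01), Trbv7 (3) and Trbv8 (0.05). All 13 took 0.880 ± 0.0583% of Trbv counts (SD, n = 3). Trbv29 is the reverse case, functional in GENCODE and a pseudogene in RefSeq, and it had 374 counts.

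Most variable segments shared no exact 50-base window with another gene. This held for the longest transcript of 28 of 35 segments. Reads with mismatches are not covered by such windows. Trbv13-1, with no shared window, still had fractional expected counts (121.03, 139.09 and 154.28). Trbv4 and Trbv5 shared 72.1% and 77.4% of their windows with 5830405F06Rik, whose transcript runs through them. The assignment SD reached 20.2% of the count for Trbv5 and 1.02% for Trbv4. Trbv5 had 26, 12.6 and 28.9 expected counts, lowest in library 2, where 5830405F06Rik had its highest count of 8.37. The second table gave Trbv5 27, 20 and 31 counts, and whether reads moved between these genes was not tested. All windows of Trbv8 occurred in AC153851.1, so its 0.05 counts carry no level of their own.

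Of the 20 segments with 30 or more counts, 2 differed between libraries beyond counting noise by a chi-square test of homogeneity with Benjamini-Hochberg adjustment over 13949 genes, against 57.2% of all genes tested. The tested segments had a median of 246 counts in all, and all genes tested had 845. Trbv31 (1204, 948 and 955 expected counts, adjusted p = 0.00826) was higher in library 1 than in the others. Trbv13-1 (121, 139 and 154 expected counts, adjusted p = 0.0243) was lowest in library 1. Without library 1 neither was called (adjusted p = 0.900 and 0.494) and Trbv5 was called instead, and without library 3 Trbv31 alone was called. With a minimum of 10 counts or of 1 in all, Trbj1-3 (2, 3 and 11 expected counts) was called as well. After the chi-square was divided by its median inflation over all genes, 6.45, the test called 0 of the 20 segments, with 0 at an unadjusted p under 0.05, against 4.45% of all genes. The same test on the second table called 0 of 33 segments, with 2 at an unadjusted p under 0.05, against 27.2% of genes.

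Diversity and joining segments are so short that the expected-count table measured few of them. A read of 50 bases cannot lie within a segment shorter than itself, and the table gives such genes an effective length of 0. Representative segments are shown whole, from the GENCODE M21 transcripts on the plus strand of GRCm38/mm10, so that their lengths can be seen. Capitals mark the motif TTNGGNNNNGGN, which holds the codons of the phenylalanine and glycines that end the third complementarity-determining region. The positions are chr6:41533201-41533212 for Trbd1, chr6:41542163-41542176 for Trbd2, chr6:41535084-41535133 for Trbj1-5, chr6:41535554-41535606 for Trbj1-6, chr6:41535642-41535687 for Trbj1-7, chr6:41543453-41543501 for Trbj2-5, chr6:41543598-41543645 for Trbj2-6 and chr6:41543810-41543856 for Trbj2-7.
Trbd1: gggacagggggc
Trbd2: gggactgggggggc
Trbj1-5: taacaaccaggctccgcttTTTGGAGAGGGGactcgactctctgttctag
Trbj1-6: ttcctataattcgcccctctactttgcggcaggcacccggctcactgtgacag
Trbj1-7: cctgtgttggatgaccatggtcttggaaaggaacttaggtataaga
Trbj2-5: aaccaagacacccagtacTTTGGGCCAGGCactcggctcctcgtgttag
Trbj2-6: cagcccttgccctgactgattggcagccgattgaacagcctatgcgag
Trbj2-7: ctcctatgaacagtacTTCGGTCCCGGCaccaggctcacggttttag
The motif was searched on the transcript strand, with N for any base, and it occurred in 11 of 14 joining segments (78.6%), against 3 of 232 windows of 50 bases from Trbv transcripts (1.29%). Its letters were not in Trbj1-6, Trbj1-7 or Trbj2-6. Trbd1 and Trbd2 are 12 and 14 bases long, and Trbj1-6 has 53.

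With an effective length of 0, both diversity segments, 7 functional joining segments and Trbj2-6 had an expected count of 0 by construction. The other 6 joining segments held 9, 20 and 19 expected counts in libraries 1, 2 and 3, and none reached 30 in all. Trbj1-3 had 2, 3 and 11 counts, or 40.2, 237 and 422 TPM. Trbj1-5 had 1, 7 and 2 counts, or 100, 791 and 227 TPM. A single read in Trbj1-5 was worth about as much TPM as all of Trbv12-2 in library 1, because only 1 start position counts towards its length. Trbj1-4 had 50.2, 226 and 56.9 TPM, and Trbj2-2 had 50.2, 170 and 56.9 TPM. Trbj1-6 had 50.2, 84.8 and 114 TPM from 2, 3 and 4 counts, and Trbj2-1 had 201, 0 and 0 TPM from 2, 0 and 0 counts. These levels are not comparable with those of variable segments, and the 8 remaining joining segments were listed at 0 TPM.

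The second table counted every functional joining segment and both diversity segments. Trbj2-7 had 87, 94 and 97 counts in libraries 1, 2 and 3, the highest sum among the joining segments. Trbj2-5 followed with 90, 78 and 83, and Trbj1-4 had 86, 84 and 76. Trbj2-2 was lowest with 49, 35 and 39, so the counts of the 13 functional joining segments ran from 123 to 278 in all. The functional variable segments in this table had a far wider range, 0 to 1467. Per base of length, the joining counts averaged 0.804 (Trbj2-2) to 1.97 (Trbj2-7) per library. Trbv31, Trbv13-2 and Trbv13-3, whose counts in this table level off against expected counts, had 1.30, 1.31 and 1.44. Trbd1, with 12 bases, had 2.69. A read of 50 bases counted on a segment this short extends beyond it, so per-base values of short and long segments are not comparable. Whether levelling off, or reads that extend beyond a segment, narrowed the range of the joining segments was not tested. Trbj1-1 had 49, 58 and 47 counts and Trbj1-7, which lacks the motif, had 65, 61 and 52. Trbj1-5 had 71, 97 and 71 and Trbj2-1 had 64, 36 and 50. The remaining members, Trbj1-2, Trbj1-3, Trbj1-6, Trbj2-3 and Trbj2-4, lay between 59 and 84 counts in each library. Trbd1 had 35, 30 and 32 counts and Trbd2 had 26, 17 and 20, so all values of Trbd1 were above those of Trbd2. Reads of 50 bases on these segments of 12 and 14 bases must extend beyond them. Whether such reads came from joined or unjoined segments was not tested, so these counts are not shown to measure segment use.

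**Figure D2:**
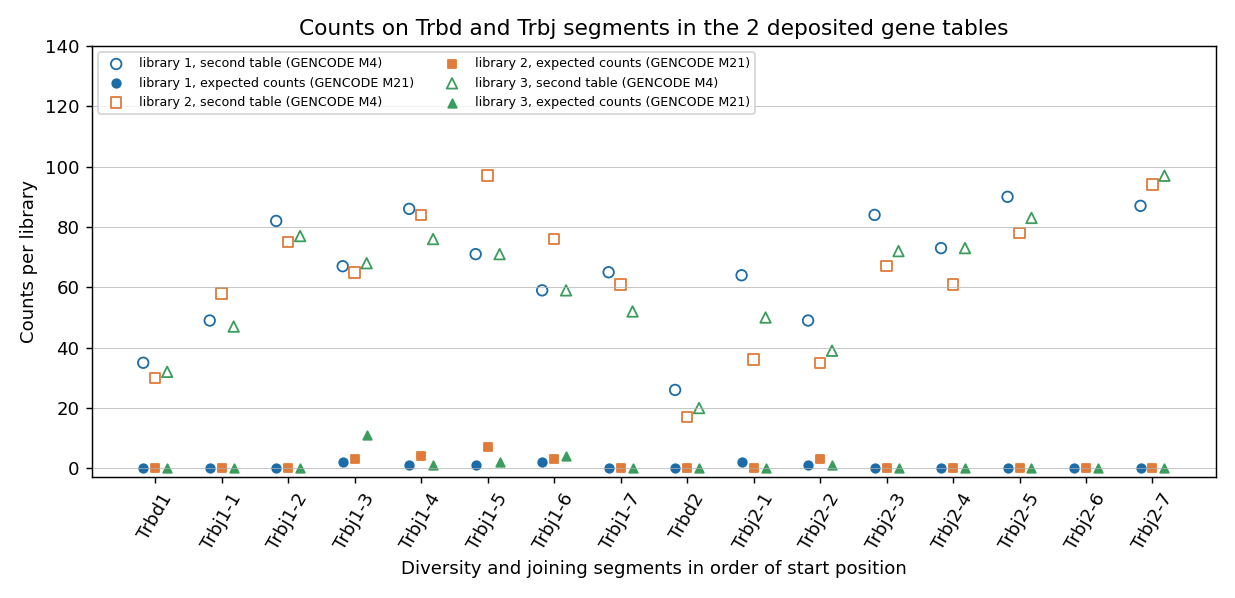
Counts per library (vertical) on the Trbd and Trbj segments in order of start position, as open symbols for the second table and filled symbols for expected counts. Open symbols lie between 17 and 97 while no filled symbol passes 11, and Trbj2-6 has no value in the second table.

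Each joining cluster lies upstream of its own constant gene, Trbj1 before Trbc1 and Trbj2 before Trbc2. In the second table the Trbj1 cluster held 479, 516 and 450 counts and the Trbj2 cluster 447, 371 and 414. The Trbj2 share of joining counts was 48.3%, 41.8% and 47.9%, lowest in library 2. Its exact 95% intervals were 45.01 to 51.5%, 38.6 to 45.2% and 44.5 to 51.3%. Whether the libraries differ in this share was not tested. Nor was it tested whether joining counts measure the segments used in joined receptor transcripts. From expected counts the Trbj2 share was 33.3%, 15% and 5.26%, on 9, 20 and 19 counts, with exact intervals as wide as 7.49 to 70.1% in library 1. Expected counts were 0 by construction for Trbj1-1, Trbj1-2, Trbj1-7 and Trbj2-3 to Trbj2-7. Trbc1 stood at 779 ± 16.0 TPM and Trbc2 at 2412 ± 4.48 TPM (SD, n = 3), a ratio of Trbc2 to Trbc1 of 3.10 ± 0.0599. The second table gave Trbc1 501, 492 and 484 counts and Trbc2 606, 601 and 595, a ratio of 1.22 ± 0.00995. Expected counts were far higher, 14392 for Trbc1 and 42798 for Trbc2 in all. The cause of the difference between the 2 ratios was not tested. The constant genes are near-identical copies, so reads that fit both are divided by estimation in the first table, with an assignment SD of 1.27% of the count for Trbc1 and 0.426% for Trbc2.

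The 2 tables gave the highest variable segments different sizes. In the second table Trbv13-3 had 516, 477 and 474 counts, Trbv31 had 479, 451 and 453, and Trbv13-2 had 473, 426 and 435. Trbv13-3 was 1.10 ± 0.0170 times Trbv13-2 and 1.06 ± 0.0156 times Trbv31 on this count (SD, n = 3), although the expected counts of Trbv13-3 were 1472, 1319 and 1222 and those of Trbv13-2 were 908, 837 and 834. The ratio of second-table to expected counts was 0.366 for Trbv13-3, 0.445 for Trbv31 and 0.517 for Trbv13-2, and 0.998 for Trbv12-2. The 8 segments with 30 or more counts in all but under 0.1 expected counts per effective base had a median ratio of 1.11. Over all genes the median ratio was 0.513 at that density and 0.159 at 3 to 10 counts per base, where Trbv13-3 and Trbv31 lie, so the ratio was also lower among dense genes in general. How either table treated repeated reads is not given in the sources used here, and the part of read duplication in this difference was not tested. The Trbv13 share of variable counts was 40.8 ± 0.309% in the second table (SD, n = 3), against 50.7 ± 1.27% from expected counts.

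**Figure D3:**
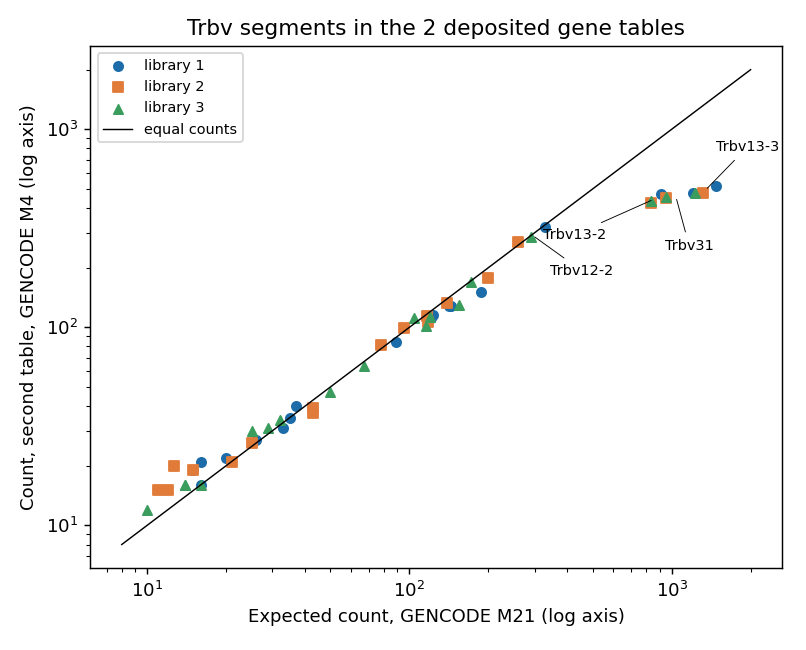
Second-table count against expected count (both log axes) for the 18 Trbv segments that have 30 or more expected counts and a row in both tables, with 1 point per segment and library and a line at equal counts. Points follow the line up to Trbv12-2, and those of Trbv13-2, Trbv31 and Trbv13-3 level off between 426 and 516.

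**Figure D4:**
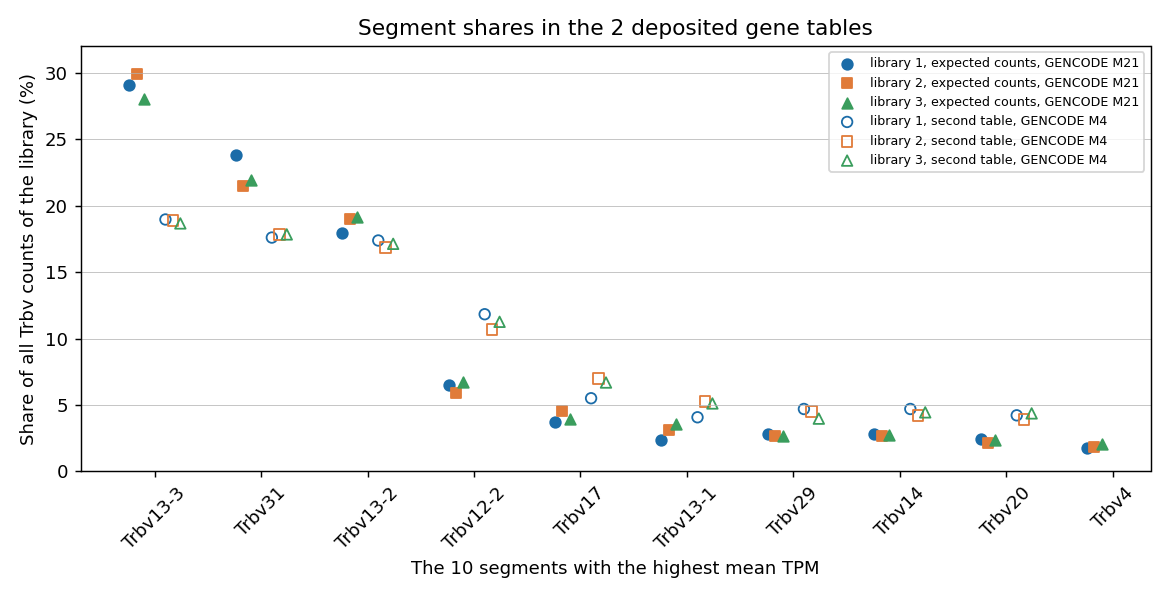
Share of all Trbv counts of a library (vertical, percent) for the 10 segments with the highest mean TPM, as filled symbols for expected counts and open symbols for the second table. Trbv13-3 falls from between 28.0 and 29.9% to between 18.7 and 18.9%, Trbv12-2 lies higher in the second table, and Trbv4 has no value there.

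A few segments, 6 Trbv and 2 Trbj, have 2 annotated transcripts in the deposited transcript tables, and the steadiness of the split between them varied. Trbv31 kept 75.7%, 77.8% and 80.0% of its TPM on its shorter transcript (ENSMUST00000103300.2) in libraries 1, 2 and 3. Trbv13-1 placed 40.9%, 55.5% and 33.7% on ENSMUST00000103268.2. All expected counts of Trbv26 were assigned to ENSMUST00000103280.2 in libraries 1 and 2 and to ENSMUST00000193064.1 in library 3. Those of Trbv30 were likewise assigned to a different transcript in library 1 than in libraries 2 and 3, while its gene counts were 20, 15 and 10. The transcripts are close in length, 344 and 367 bases for Trbv26 and 332 and 335 for Trbv30. These splits are estimates on 10 to 21 counts per library, and whether transcript use differed was not tested.

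Summed over segments, Trbv reached 1672, 1644 and 1631 TPM, and the constant genes 3180, 3180 and 3213 TPM. The ratio of the sums was 0.517 ± 0.00908 (SD, n = 3), nearly the same in each library. The summed Trbj level, 492, 1508 and 877 TPM, had no such stability, since it rested on 48 counts. Transcripts for the proteins that assemble with the beta chain were all detected. Cd3e, which with Cd3d, Cd3g and Cd247 forms the signalling part of the complex, had 699, 646 and 694 TPM, and the means of Cd3g, Cd3d and Cd247 were 600, 389 and 257 TPM. The complex partner list also holds Trbc1 and Trbc2, the constant genes of the beta chain itself. All 7 of its genes passed 30 counts, with Trac and Trbc2 the highest.

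Genes of the recombination machinery were read by role. Rag1 and Rag2, which cut at the segments' borders, had 8, 9 and 18 counts (mean 0.197 TPM) and 0, 2 and 0 counts. Dntt, the polymerase that adds bases at the joints, had 0, 1 and 1, and Ptcra, the partner of a new beta chain in thymocytes, had 0, 0 and 2. The end-joining genes, which repair breaks in all cells, each passed 30 counts, with means of 25.5 TPM for Xrcc5, 31.8 for Xrcc6, 16.2 for Prkdc, 14.2 for Dclre1c, 18.3 for Xrcc4, 5.60 for Nhej1 and 1.31 for Lig4. In all, 8 of the 11 listed recombination genes passed 30 counts, Rag1 among them with 35, and Rag1 was the only one of 5 thymocyte markers that did.

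Invariant natural killer T cells carry a fixed alpha chain of Trav11 and Traj18 paired mainly with Trbv13, Trbv29 or Trbv1 beta chains, so their markers were read beside those segments. Trav11d had 20.2, 25.5 and 16.7 TPM and Traj18 had 10, 8 and 8 counts, while Trav11 was at 0. The expected counts of Trav11d were fractional (58.78, 66.04 and 43.04), so some of its reads were shared with other genes. How reads were divided between Trav11 and Trav11d was not examined, so the 0 does not show that Trav11 is silent. Klrb1c, which encodes the NK1.1 receptor, had 19.0, 21.5 and 13.4 TPM, and Zbtb16, the defining transcription factor of these cells, had 15, 4 and 4 counts. Of the 5 markers 2 passed 30 counts. The summed level was 98.5, 100 and 83.7 TPM, of which the short segment Traj18 gave 59.1, 53.2 and 53.5, and 39.4, 47.1 and 30.1 TPM without it. Beside these, Trbv29 was highest in library 1 (46.6 TPM), Trbv13-3 was highest in library 2 (512 TPM), Trbv1 was highest in library 2 (13.2 TPM), Trbv13-1 was highest in library 3 (57.3 TPM), and Trbv13-2 was about equal in libraries 2 and 3 (325 and 326 TPM). Of these segments the chi-square test between libraries called Trbv13-1 alone, a call lost after division by the median inflation. The others had adjusted p from 0.141 to 0.822 in that test, so their order over libraries was not settled. The part of such cells in the Trbv levels was not tested.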

How the data were processed

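The authors deposited, per library, gene and transcript tables on mm10 with GENCODE M21, whose headers name expected counts, TPM, effective lengths, the posterior SD of the count and, for transcripts, the percent of a gene's TPM. A second deposited table per library holds whole-number counts on GENCODE M4 genes, per the deposited read-me texts. No source used here names the quantifier or the counter, their strand settings or their treatment of repeated reads, so overlapping and antisense genes cannot be separated. Rows naming no mouse gene, 0.188%, 0.579% and 0.240% of the counts, were left out. Members and gene lists were chosen with earlier results of these data known.

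Of 22457 rows in the second table, 22195 matched a GENCODE M21 gene; it has rows for 36 of the 51 segments and none for the 13 variable pseudogenes, Trbv4 and Trbj2-6. Shares are segment counts over all counts of their kind in a library. Differences between libraries were tested gene by gene with a homogeneity chi-square on rounded expected counts, for genes with at least 30 counts in all, with TMM effective library sizes and Benjamini-Hochberg adjustment at 0.05 over 13949 genes. A count of 0 was taken to allow 3 counts, and intervals are exact at 95%. The named genes are all segments with 30 counts, the 10 highest Trbv and 8 highest Trbj by mean TPM, called segments, Trbc1, Trbc2, the listed genes and the highest 2 other genes of the locus. The lists were complex partners, recombination, invariant natural killer T, CD8, gamma-delta and thymocyte genes, and 1 further marker list is not reported here. Stop codons, shared 50-base windows, pairwise identity and the joining motif were computed from the GENCODE M21 transcripts. Stop codons were counted in each forward frame of a stretch near the transcript's end, so a stop elsewhere would be missed. Recombination signal sequences were not analysed here. Other settings were DESeq2 size factors, total counts, other minimums, TPM, posterior means, the second table, removal of uncertain segments and leaving out each library. Python 3.11.15, scipy 1.17.1, Biopython 1.88, R 4.3.3, edgeR 4.0.16 and DESeq2 1.42.0 were used.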

Additional observations from a re-analysis of the deposited data

How the results depend on the processing

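The count of segments that differed between libraries, 2, fell to 0 on the second table and to 0 after division by the median inflation, was 1 to 2 when 1 library was left out, and rose to 3 with a minimum of 10 counts or of 1, which added Trbj1-3. The call of Trbv31 was lost on the second table (adjusted p = 0.862), after division by the inflation (0.976) and without library 1 (0.900), and that of Trbv13-1 likewise (0.190, 1 and 0.494) and without library 3 (0.0915). The number of segments with 30 counts, 20, was 33 in the second table and 17 to 19 with 1 library left out. Those 33 were 18 Trbv, 2 Trbd and 13 Trbj segments, while the 20 were all Trbv. The Trbv13 share of 50.7% was 52.8% from TPM, 40.8% in the second table and 50.1 to 51.3% with 1 library left out. The Trbv31 share of 22.4% was 17.8% in the second table and 21.7 to 22.9% with 1 library left out. The Trbj2 share of 17.9% was 46.0% in the second table and 10.1 to 24.2% with 1 library left out. Expected counts hold nothing for segments with an effective length of 0, namely Trbj1-1, Trbj1-2, Trbj1-7 and Trbj2-3 to Trbj2-7. The cause of these changes was not tested. Leaving out members under 30 counts gave no Trbj2 share, since no joining segment reached 30, and the recombination signal search and both of its alternatives were not run. Joining segments are limited by 48 expected counts in all, and 1 mouse gives no spread between animals. No paired analysis was possible because all 3 libraries form 1 group.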
